A study of Mus musculus with 16 samples.

Results

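The D-type cyclins, their kinase partners and the inhibitors that act on them were followed across sorted B1b cells and whole aortas. The family comprised 8 genes of the 24562 entries left when 1 transcript row was kept per gene: Ccnd1, Ccnd2 and Ccnd3 (cyclins D1, D2 and D3), Cdk4 and Cdk6 (their kinases), and Cdkn1a, Cdkn1b and Cdkn2c (the inhibitors p21, p27 and p18). The members were taken by symbol, and where a gene had several transcript rows the row of highest total count was used. Ccnd3 had 3 rows, Cdkn1a and Cdkn2c had 2 each, and the other members had 1. The family was assembled with the rise of Ccnd2 in B1b cells already known, so that result describes these samples and is not independent evidence.

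All mice carried the ApoE-/- background, in which loss of apolipoprotein E makes animals prone to atherosclerosis. Within it the samples were labelled wt, here called wild type, or cre, and the series describes the second genotype as a deficiency of CD40 limited to B cells. B1b cells, innate-like B cells of the body cavities, were sorted from peritoneal lavage as CD19hi, B220lo, IgMhi and CD5lo cells, with 3 libraries per genotype, and snap-frozen whole aortas gave 5 libraries per genotype. The sources used here give no Cre promoter, no altered stretch of Cd40 and no age of the mice. Nor do the labels say whether each sample came from its own animal, so the p-values rest on sample-to-sample spread, which may be technical.

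The B1b libraries held 6815829 to 9911226 counts and the aortas 1645926 to 7300894. Cd40, the targeted gene, stood at 36.8 ± 2.70 library-scaled counts (CPM) in wild-type B1b cells and at 32.8 ± 4.64 CPM in those labelled cre (SD, n = 3 each), and its log2 fold change of -0.16 did not pass the test (edgeR adjusted p = 0.679). Transcript counts over the whole gene therefore did not separate the labels, and they cannot check a deletion of unknown extent. Summed CPM of 8 B cell markers lay between 8048 and 9174 in the B1b libraries and between 129.6 and 292 in the aortas. The 8 smooth muscle markers summed to 12459 CPM or more in wild-type aortas, to 8598 or more in aortas labelled cre, and to 20.4 CPM or less in every B1b library.

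D-type cyclins link growth signals to the start of the cell cycle. They bind Cdk4 or Cdk6, and the active kinase phosphorylates the retinoblastoma protein, which then releases E2F factors that switch on genes for DNA replication. p18 belongs to the INK4 class and binds the kinases themselves, whereas p21 and p27 belong to the CIP/KIP class, which restrain CDK2 complexes and also associate with cyclin D complexes. In B lymphocytes cyclin D2 and cyclin D3 are the main D cyclins, D2 is induced by antigen receptor signals, and mice without cyclin D2 are known to have few B-1 cells in the peritoneum.

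The start of each D cyclin coding sequence holds the motif that docks the retinoblastoma protein, and it is shown because it is the feature that the 3 cyclins share whichever of them a cell expresses. Capitals mark the leucine, cysteine and glutamate codons of that motif. The sequences are codons 1 to 15 of the GENCODE M21 transcripts, printed 5′ to 3′ on the coding strand of GRCm38.
Ccnd1, chr7:144939649-144939693, minus strand: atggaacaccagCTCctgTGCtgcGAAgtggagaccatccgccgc
Ccnd2, chr6:127150729-127150773, minus strand: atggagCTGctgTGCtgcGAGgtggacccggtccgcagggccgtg
Ccnd3, chr17:47593655-47593699, plus strand: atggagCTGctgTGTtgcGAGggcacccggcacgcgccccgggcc
A second stretch near the end of each coding sequence holds the threonine followed by proline (capitals) whose phosphorylation marks the cyclin for destruction. It is shown because the protein of each cyclin is controlled there, a step that transcript counts do not see.
Ccnd1, codons 281 to 293, chr7:144932616-144932654, minus strand: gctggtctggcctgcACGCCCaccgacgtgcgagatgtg
Ccnd2, codons 275 to 287, chr6:127130344-127130382, minus strand: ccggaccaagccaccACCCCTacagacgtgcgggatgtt
Ccnd3, codons 278 to 290, chr17:47598729-47598767, plus strand: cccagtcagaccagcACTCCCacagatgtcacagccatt

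These transcripts encode cyclins of similar size, with 295 codons in Ccnd1, 289 in Ccnd2 and 292 in Ccnd3. At the nucleotide level they were distinct. The longest identical stretch between any 2 of the 3 transcripts was 20 bases, for Ccnd1 and Ccnd2, and it was also 20 bases for Cdk4 and Cdk6. The annotated transcripts differed more in length, from 6330 bases for Ccnd2 and 11525 bases for Cdk6 to 1913 bases for Cdkn1a, so levels are compared between genes only per kilobase of transcript.

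In wild-type B1b cells, cyclin D2 was the leading D cyclin and p27 the leading inhibitor. Per kilobase, Ccnd2 stood at 66.0 ± 6.28 CPM, Cdk4 at 61.2 ± 2.83 and Cdkn1b at 57.2 ± 5.05 (SD, n = 3), and the ranges of neighbours in this order overlapped. Ccnd3 followed at 36.1 ± 4.97 CPM per kilobase, below every Cdkn1b value. The 4 remaining members lay far lower and overlapped from one to the next, with Cdkn2c at 2.85 ± 0.0549, Cdkn1a at 2.76 ± 1.01, Cdk6 at 1.89 ± 0.295 and Ccnd1 at 1.25 ± 0.505 CPM per kilobase. The level of Ccnd1 rested on 46, 41 and 23 counts in the 3 libraries.

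In wild-type aortas the order was another one, headed by p21. Cdkn1a reached 125.2 ± 21.8 CPM per kilobase (SD, n = 5), above every other member in each of the 5 libraries. Ccnd3 at 51.0 ± 6.03, Cdk4 at 43.8 ± 5.09 and Ccnd2 at 41.7 ± 4.47 CPM per kilobase overlapped from neighbour to neighbour. Below them, Cdkn1b at 22.6 ± 1.69 and Ccnd1 at 21.9 ± 4.35 CPM per kilobase could not be ordered, and Cdkn2c at 8.93 ± 2.67 and Cdk6 at 6.20 ± 0.836 CPM per kilobase closed the order with ranges that lay apart. The order of the 8 means was the same in the aortas labelled cre. In whole aortas, fewer cells of a type and less RNA per cell cannot be told apart.

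**Figure D1:**
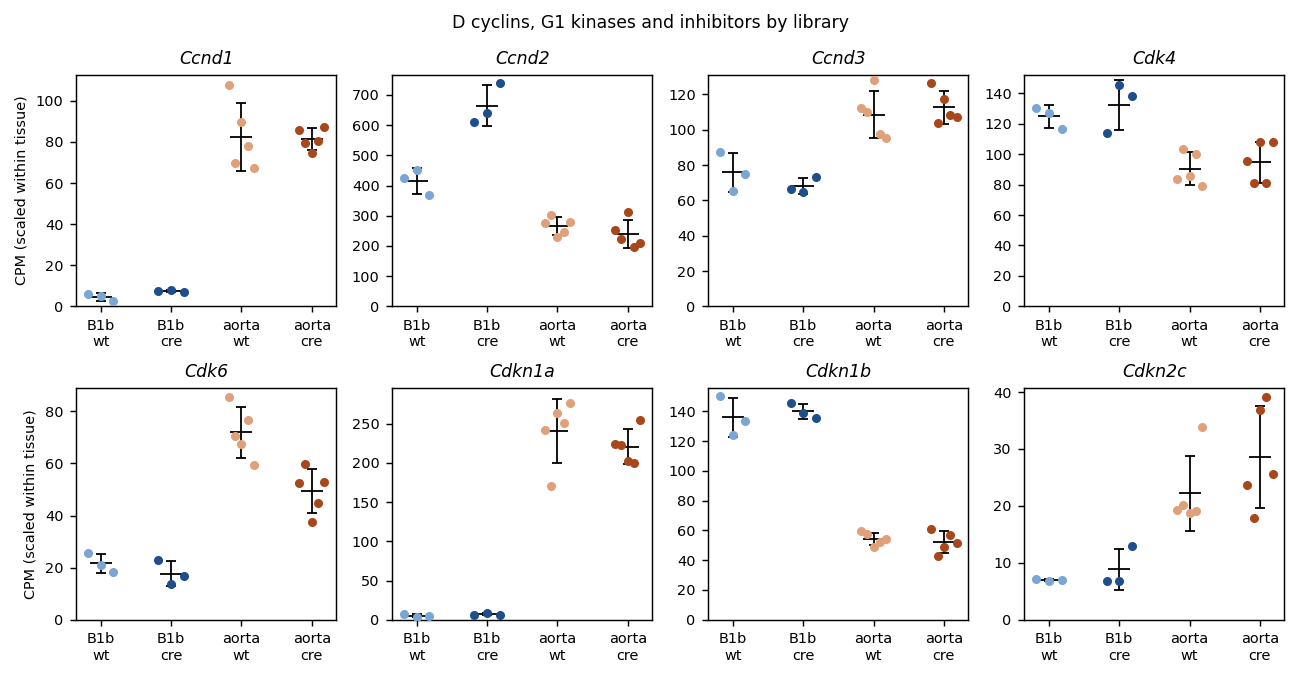
CPM, scaled within each tissue, of the 8 members in each library (points), with the group mean and SD (bar and whiskers, n = 3 per B1b group and n = 5 per aorta group). In B1b cells the 3 Ccnd2 values labelled cre lie above the 3 wild-type values, and Ccnd1 and Cdkn1a are low in B1b cells and high in aortas.

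The make-up of the D cyclin pool differed between the tissues. Counted per length, Ccnd2 held 63.8% ± 4.39 of D cyclin transcripts in wild-type B1b cells and 36.5% ± 4.54 in wild-type aortas. Ccnd1 held 1.19% ± 0.426 of the pool in B1b cells and 19.0% ± 2.84 in aortas, and Ccnd3 held 35.0% ± 4.51 and 44.4% ± 3.32 (SD, n = 3 and 5). The summed level of the 3 cyclins was closer, at 103.4 ± 6.51 CPM per kilobase in wild-type B1b cells and 114.6 ± 8.09 in wild-type aortas. Cdk4 supplied 97.0% ± 0.345 of the Cdk4 and Cdk6 transcripts in wild-type B1b cells and 87.5% ± 1.74 in wild-type aortas. Among the 3 inhibitors, Cdkn1b held 91.1% ± 0.833 in wild-type B1b cells, and Cdkn1a held 79.6% ± 3.63 in wild-type aortas.

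**Figure D2:**
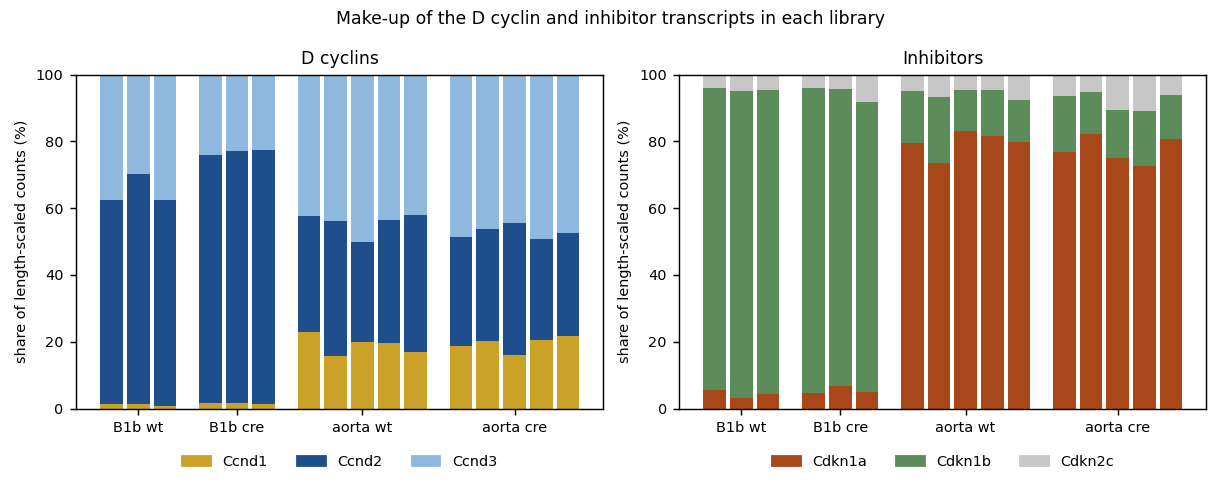
Share of length-scaled counts (y axis, percent) held by each D cyclin (left) and each inhibitor (right), with 1 stacked bar per library, grouped by tissue and genotype. Ccnd2 holds 74.3% to 76.2% of the D cyclin pool in B1b cells labelled cre and 60.9% to 68.9% in wild-type B1b cells, and the leading inhibitor is Cdkn1b in B1b cells and Cdkn1a in aortas.

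All 8 members passed the test between the wild-type tissues, 3 higher and 5 lower in B1b cells, with ranges that did not overlap. Differences of this kind were the rule, since 75.9% of the 14339 genes tested passed, 35.4% higher and 40.4% lower in B1b cells, and 72.7% did not overlap, so the count of members is near what most genes did. The sizes set them apart from one another. Cdkn1a was the member furthest below its aortic level (log2 fold change -5.50, SE 0.27, edgeR adjusted p = 1.77e-09) and Ccnd1 came next at -4.15 (SE 0.28, edgeR adjusted p = 3.6e-08). Cdk6 and Cdkn2c were lower too, with log2 fold changes of -1.72 and -1.62 (edgeR adjusted p = 8.72e-07 and 5.68e-05). Ccnd3 was lower by a smaller step, -0.51 (SE 0.14, edgeR adjusted p = 0.00527). Cdkn1b was the member furthest on the other side, at 1.34 (SE 0.12, edgeR adjusted p = 3.71e-07), followed by Ccnd2 at 0.66 (SE 0.13, edgeR adjusted p = 0.000538) and Cdk4 at 0.47 (SE 0.12, edgeR adjusted p = 0.00346). The median log2 fold change was -1.06 over the 8 members and -0.09 over all genes tested. Sorted cells and a whole frozen tissue were also prepared differently, which cannot be told apart from the tissue itself. Between the groups labelled cre, Ccnd2 differed by 1.54 on the log2 scale (edgeR adjusted p = 5.81e-06).

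Between the genotypes in B1b cells, Ccnd2 rose in the libraries labelled cre, and no other member passed the test. Ccnd2, at chr6:127125162-127152188 in GRCm38, read 424, 452 and 369 CPM in the wild-type libraries and 611, 640.2 and 740.2 CPM in those labelled cre. The lowest cre value thus lay above the highest wild-type value, which held for 9.71% of all genes tested. The means were 415 ± 42.0 and 664 ± 67.7 CPM (SD, n = 3 each). The log2 fold change was 0.68 (SE 0.09, 95% interval 0.49 to 0.86, edgeR adjusted p = 0.000523). By p-value Ccnd2 ranked 6 among 11732 genes tested, of which 0.707% passed, 0.486% higher and 0.222% lower. When all 16 libraries shared 1 estimate of spread, the fold change was 0.67 and the call was lost (edgeR adjusted p = 0.289), as were the calls of all other genes in this comparison. The lncRNA 9330179D12Rik overlaps Ccnd2 and had 71 counts over the 16 libraries. Since the use of strand is not given, any reads in the shared stretch cannot be told apart.

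Ratios within each library need no scaling between libraries. The ratio of Ccnd2 to 4 of the other 7 members (Ccnd3, Cdk4, Cdk6 and Cdkn1b) separated the genotypes. The ratio to the remaining 3 members (Ccnd1, Cdkn1a and Cdkn2c) did not. The log2 ratio of Ccnd2 to Ccnd3 counts was 2.28, 2.79 and 2.30 in wild type and 3.21, 3.30 and 3.34 in the libraries labelled cre. Against Cdk4 the log2 ratio was 1.70, 1.83 and 1.66 in wild type and 2.42, 2.14 and 2.42 with cre, and against Cdkn1b it was 1.495, 1.86 and 1.47 and then 2.07, 2.21 and 2.45. Against Cdk6 it was 4.05, 4.43 and 4.33 in wild type and 4.74, 5.55 and 5.47 with cre. The ratio to Ccnd1 was 6.09, 6.42 and 7.20 in wild type and 6.36, 6.36 and 6.69 with cre, that to Cdkn1a ran from 5.86 to 7.08 and from 6.23 to 6.93, and that to Cdkn2c from 5.73 to 6.05 and from 5.83 to 6.57, all overlapping. Per length, the share of Ccnd2 in the D cyclin pool was 63.8% ± 4.39 in wild type and 75.4% ± 0.946 with cre, and that of Ccnd3 was 35.0% ± 4.51 and 23.2% ± 0.83. The summed level of the pool was 109.2, 104.6 and 96.4 CPM per kilobase in wild type and 132.9, 130.9 and 154.6 with cre, again without overlap. These ratios, shares and sums reuse the Ccnd2 values and carry no test of their own.

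Cyclin D1 was scarce in B1b cells of either genotype. Ccnd1, at chr7:144929931-144939831, read 6.21, 5.27 and 2.504 CPM in wild type and 7.44, 7.77 and 7.17 CPM with cre. The genotypes did not overlap, which held for 18.4% of all genes tested and in this direction for 9.71%. On means of 4.66 ± 1.93 and 7.46 ± 0.302 CPM, the log2 fold change of 0.69 missed the threshold (SE 0.34, 95% interval -0.02 to 1.39, edgeR adjusted p = 0.393). It was 0.38 without wild-type replicate 3, the lowest library, and reached 0.95 without wild-type replicate 1. Part of Ccnd1 is overlapped by LTO1, which had 2423 counts over the 16 libraries, and since the use of strand is not given, reads in the shared stretch cannot be told apart.

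Cyclin D3 did not pass in B1b cells. Ccnd3, at chr17:47505051-47599689, read 87.4, 65.1 and 74.9 CPM in wild type and 66.2, 64.8 and 73.2 CPM with cre, and the ranges overlapped. Its log2 fold change was -0.15 (SE 0.11, 95% interval -0.38 to 0.08, edgeR adjusted p = 0.591), an interval whose upper end lies below the lower end of that of Ccnd2. Ccnd3 overlaps Bysl, which had 5082 counts over the 16 libraries, so some of its reads may belong to that gene.

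The kinases gave no call in B1b cells. Cdk4, at chr10:127063535-127067288, read 130.6, 127 and 117 CPM in wild type and 114, 145 and 138 CPM with cre. Its log2 fold change was 0.09 (SE 0.10, 95% interval -0.12 to 0.29, edgeR adjusted p = 0.775). Cdk6, at chr5:3341004-3531008, read 25.7, 20.9 and 18.4 CPM in wild type and 22.8, 13.6 and 16.8 CPM with cre. Overlapping ranges and a log2 fold change of -0.28 left it short of the threshold (SE 0.20, 95% interval -0.69 to 0.13, edgeR adjusted p = 0.576). Cdk4 meets Tspan31 at its end, and that gene had 9255 counts over the 16 libraries.

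The inhibitors gave no call in B1b cells either. Cdkn1b, the leading inhibitor per kilobase, at chr6:134920401-134925525, read 150.5, 124 and 133 CPM in wild type and 146, 139 and 136 CPM with cre, and its log2 fold change was 0.04 (SE 0.09, 95% interval -0.14 to 0.23, edgeR adjusted p = 0.891). Its interval excluded a change as large as that of Ccnd2 in the same cells. Cdkn1a, at chr17:29090979-29100722, read 7.29, 3.34 and 5.12 CPM in wild type and 6.10, 8.50 and 6.05 CPM with cre, and its log2 fold change was 0.39 (95% interval -0.31 to 1.08, edgeR adjusted p = 0.681). Leaving out wild-type replicate 2 gave 0.16, leaving out cre replicate 2 gave 0.22, and leaving out wild-type replicate 1 gave 0.69. Cdkn2c, at chr4:109660876-109666756, was even across 5 libraries, with 7.16, 6.81 and 6.97 CPM in wild type and 6.71 and 6.74 CPM in cre replicates 1 and 2, and stood at 13.0 CPM in cre replicate 3. Its log2 fold change of 0.35 (95% interval -0.25 to 0.96, edgeR adjusted p = 0.662) was -0.04 without that library.

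**Figure D3:**
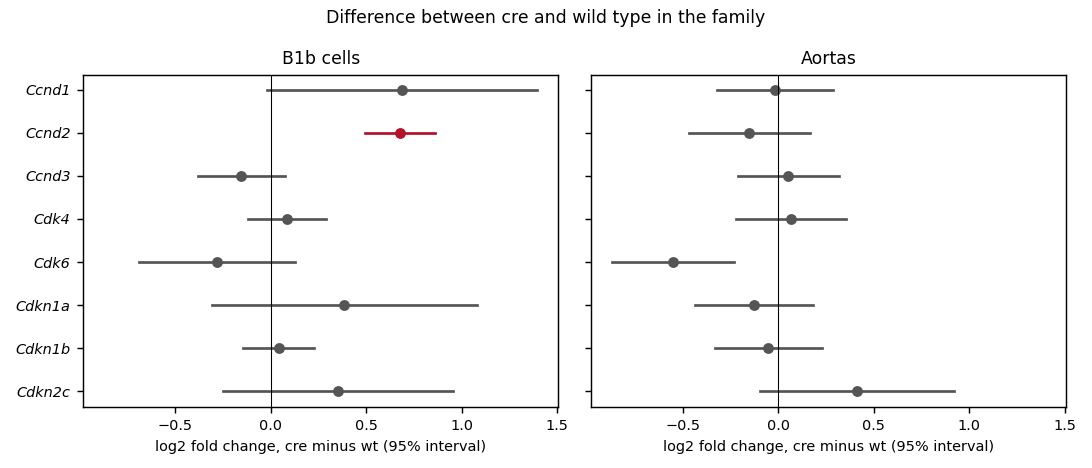
Log2 fold change of each member, cre minus wild type (x axis), with its 95% interval, in B1b cells (left) and aortas (right). Red marks the 1 member past the edgeR adjusted threshold, Ccnd2 in B1b cells at 0.68, and grey marks the others.

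Cre replicate 3 of the B1b cells also held the highest level of genes used in S phase and mitosis. The 24 such genes summed to 403, 351 and 385 CPM in wild type and to 441, 411 and 645 CPM with cre. Of the 22 tested, 20 had a log2 fold change above 0 and 0 passed in edgeR (6 at an unadjusted p under 0.05, and 1 passed in DESeq2), with a median of 0.53 beside -0.00 for all genes tested. The smallest p-values belonged to Tpx2, a spindle assembly factor (log2 fold change 1.28, edgeR adjusted p = 0.119), Cenpf, a kinetochore protein (2.06, edgeR adjusted p = 0.129), and Mki67, the proliferation marker (1.38, edgeR adjusted p = 0.317). Without this library the log2 fold change of Ccnd2 was 0.60, and Ccnd2 passed whichever 1 of the 6 libraries was left out (0.60 to 0.75, edgeR adjusted p from 0.000943 to 0.00467). The summed S phase and mitosis genes also separated the genotypes without overlap, and their part in the Ccnd2 difference was not tested.

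Markers of macrophages and monocytes moved in the same direction. The 14 markers, none of them at 0, summed to 182, 249 and 320 CPM in wild-type B1b libraries and to 363, 436 and 378 CPM in those labelled cre, so the genotypes did not overlap. Of 13 tested, 11 lay above 0, with a median log2 fold change of 0.77. In edgeR 1 passed higher, where 0.486% of all genes tested did (7 at an unadjusted p under 0.05, and 2 higher in DESeq2). Both these sums and Ccnd2 thus separated the genotypes, and the part of these markers in the Ccnd2 difference was not tested. The 7 markers of conventional B-2 cells, the B cells that the sort aimed to leave out, summed to 2749 to 2819 CPM in wild type and 2431 to 2599 CPM with cre. These sums did not overlap, and 0 of the 7 passed in edgeR (6 at an unadjusted p under 0.05, and 2 lower in DESeq2). The 9 markers of B-1 cells summed to 1117 to 1334 CPM in wild type and 1179 to 1453 CPM with cre, and 0 passed in edgeR. Sums of different genes do not give the share of each cell type, and the part of B-2 cells in the Ccnd2 difference was not tested.

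**Figure D4:**
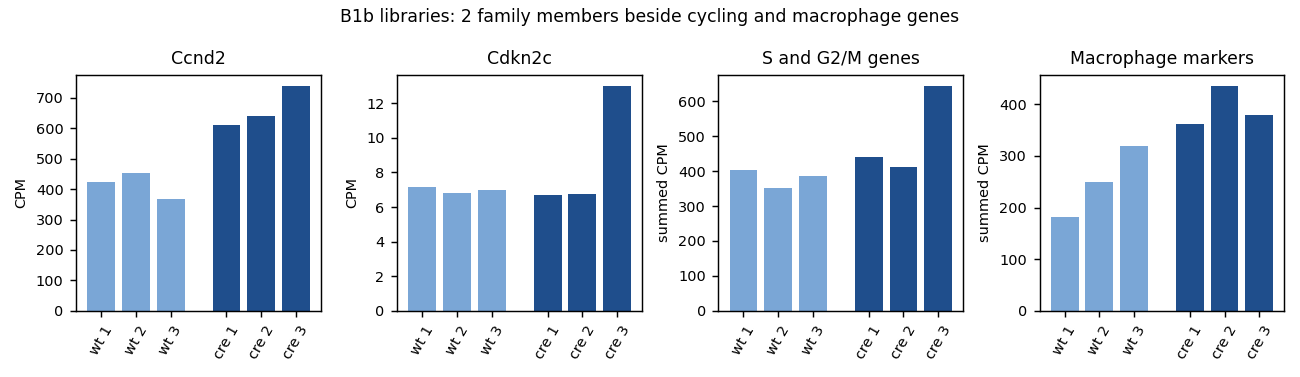
The 6 B1b libraries shown singly: CPM of Ccnd2 and of Cdkn2c, and summed CPM of 24 genes of S phase and mitosis and of 14 macrophage markers. Cre replicate 3 stands highest for Ccnd2 (740.2 CPM), Cdkn2c (13.0 CPM) and the S phase and mitosis genes (645 CPM), but not for the macrophage markers, and Ccnd2 is also raised in cre replicates 1 and 2.

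Genes that act before and after the D cyclins were examined from lists of 107 genes in all, the members left out. In B1b cells 97 could be tested, and their median log2 fold change was 0.03. Among them 1 passed higher and 4 lower, where 0.486% and 0.222% of all genes tested did. Of the retinoblastoma family, the substrates of the D cyclin kinases, 0 of 3 passed in edgeR. Rb1 came closest with 234 ± 29.3 CPM in wild type and 299.7 ± 15.7 CPM with cre (log2 fold change 0.35, edgeR adjusted p = 0.0706, the 1 gene of the 3 with an unadjusted p under 0.05 and the 1 that passed in DESeq2), while Rbl1 and Rbl2 stood at 0.03 and -0.06. All 9 tested E2F and DP factors, some of which the retinoblastoma proteins hold in check, lay above 0, as did 49.1% of all genes tested. Their median was 0.17, and 0 passed (in edgeR, with 0 at an unadjusted p under 0.05 and 0 in DESeq2). Of these, Tfdp1 had the smallest p (log2 fold change 0.23, edgeR adjusted p = 0.406).

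The next step of the cycle gave no call in B1b cells. Of 8 tested genes of cyclin E, cyclin A, CDK2 and the kinase that activates it, 0 passed (edgeR; 2 at an unadjusted p under 0.05 and 0 in DESeq2), with Cdk7 at 0.32 (edgeR adjusted p = 0.235) and Ccne2, a cyclin E, at 0.48 (edgeR adjusted p = 0.34). Of 11 tested genes that turn over D cyclins and p27, 0 passed (edgeR; 0 unadjusted, 0 in DESeq2), and Ambra1, which directs D cyclins to degradation, stood at -0.20 (edgeR adjusted p = 0.397). Of 10 tested FOXO, MYC and BCL6 regulators of G1 genes, 0 passed (edgeR; 1 unadjusted, 0 in DESeq2), Foxo4 being nearest at -0.39 (edgeR adjusted p = 0.145). Of 4 other cyclins tied to G0 and G1, 0 passed (edgeR; 2 unadjusted, 0 in DESeq2). Cdkn2d, which encodes the INK4 inhibitor p19, was the only inhibitor outside the family with enough counts to be tested in B1b cells, and its log2 fold change was -0.14 (edgeR adjusted p = 0.814).

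The genes that passed in B1b cells came from the p53 and immediate early lists. Of 13 tested genes of p53 and its targets, the list to which Cdkn1a belongs in function, 1 passed in edgeR. It was Trp53inp1, a p53-induced nuclear protein, which rose from 237 ± 25.3 to 313.5 ± 15.9 CPM (log2 fold change 0.40, SE 0.08, edgeR adjusted p = 0.0287). The list as a whole did not rise, with 5 of 13 above 0 and a median of -0.06, and DESeq2 called 1 gene higher and 1 lower. Of 18 tested immediate early and dissociation genes, 4 fell, beside 0.222% of all genes tested, with a median of -0.33 over the list. Fosb, an AP-1 subunit, went from 15.6 ± 1.20 to 4.35 ± 1.02 CPM (log2 fold change -1.84, edgeR adjusted p = 0.000588). Egr3, Gadd45b and Ppp1r15a had log2 fold changes of -0.89, -0.77 and -0.69 (edgeR adjusted p = 0.0482, 0.0439 and 0.0357). These genes respond quickly to receptor signals and to handling of cells, and the part of handling was not tested.

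In aortas no member passed the test, and 0.015% of the 13364 genes tested did. One member, Cdk6, had an unadjusted p under 0.05, as did 12.6% of all genes, and it was also the 1 member that passed in DESeq2. Cdk6 read 85.4, 70.7, 67.6, 76.6 and 59.2 CPM in wild type and 52.5, 59.8, 37.7, 44.9 and 53.1 CPM with cre. Only the highest cre value and the lowest wild-type value crossed, by under 1 CPM, and 2.92% of all genes tested had groups that did not overlap. The means were 71.9 ± 9.82 and 49.6 ± 8.49 CPM (SD, n = 5 each), and the log2 fold change was -0.55 (SE 0.15, 95% interval -0.87 to -0.23, edgeR adjusted p = 0.205, DESeq2 adjusted p = 0.0496). Within each library the log2 ratio of Cdk6 to Cdk4 was 0.03, -0.55, -0.35, -0.38 and -0.42 in wild type and -0.87, -0.43, -1.52, -0.86 and -1.03 with cre. Per length, the share of Cdk4 in the kinase pair was 87.5% ± 1.74 in wild type and 91.3% ± 2.08 with cre.

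The aortas differed in what tissue they held, and Cdk6 was read beside it. The 8 fibroblast markers summed to 23408 to 31600 CPM in wild type and to 15096 to 26149 CPM with cre, with 1 of 8 above 0 and a median log2 fold change of -0.45. All 10 heart muscle markers lay above 0 with cre, with a median of 1.19, and their sum ran from 710.4 to 3143 CPM in wild type and from 844 to 7396 CPM with cre. Nerve and Schwann cell markers were above 0 in 10 of 10 (median 0.84), adipocyte markers in 7 of 7 (median 0.75) and skeletal muscle markers in 5 of 6 tested (median 2.07). In edgeR 0 markers of these 5 lists passed, with 5 fibroblast, 5 heart muscle, 4 nerve, 3 skeletal muscle and 1 adipocyte marker at an unadjusted p under 0.05, while DESeq2 called 4 heart muscle, 3 nerve and 2 skeletal muscle markers higher. None of the markers of the 5 lists was at 0 in a whole aorta group, and their part in the Cdk6 difference was not tested. Outside these lists, 1 of 7 tested B cell markers passed higher in edgeR, where 0.015% of all genes tested passed. Of the 7, 6 lay above 0, with a median of 0.27. The 8 B cell markers summed to 129.6 to 211 CPM in wild-type aortas and to 181 to 292 CPM with cre.

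The D cyclins did not pass in aortas. Ccnd2 read 275, 303, 228, 245 and 278 CPM in wild type and 254, 224, 312, 197 and 209 CPM with cre, with a log2 fold change of -0.15 (95% interval -0.47 to 0.16, edgeR adjusted p = 0.692). Its interval lay below that of the B1b cells. Ccnd1 read 107.5, 69.8, 89.7, 77.8 and 67.2 CPM in wild type and 85.7, 79.5, 74.5, 80.3 and 87.4 CPM with cre, so that the cre values fell inside the wild-type range (log2 fold change -0.02, 95% interval -0.32 to 0.29, edgeR adjusted p = 0.968). For Ccnd3 the means were 108.5 ± 13.2 and 112.6 ± 9.38 CPM, with a log2 fold change of 0.05 (95% interval -0.21 to 0.32, edgeR adjusted p = 0.883). The means of Cdk4 were 90.5 ± 10.7 and 94.7 ± 13.5 CPM, with a log2 fold change of 0.07 (95% interval -0.22 to 0.36, edgeR adjusted p = 0.861).

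Of the inhibitors in aortas, Cdkn1a and Cdkn1b differed little and Cdkn2c varied most from library to library. Cdkn1a, the leading inhibitor per kilobase here, read 242, 171, 264, 251 and 276 CPM in wild type and 224, 223, 202, 200.1 and 255 CPM with cre, with a log2 fold change of -0.12 (95% interval -0.43 to 0.18, edgeR adjusted p = 0.744). Cdkn1b had means of 54.4 ± 4.22 and 52.2 ± 7.20 CPM and a log2 fold change of -0.05 (95% interval -0.33 to 0.23, edgeR adjusted p = 0.892). Cdkn2c read 19.2, 20.1, 18.8, 19.0 and 33.9 CPM in wild type and 23.6, 17.9, 36.8, 39.0 and 25.5 CPM with cre. Its log2 fold change of 0.41 did not pass (95% interval -0.09 to 0.92, edgeR adjusted p = 0.487), and it was 0.69 without the 2 aortas under 2000000 counts (edgeR adjusted p = 0.116). The 3 libraries highest in Cdkn2c, wild-type replicate 5 and cre replicates 3 and 4, were also the 3 highest in the 8 adipocyte markers, which summed there to 4701, 4926 and 5736 CPM and to between 889 and 2356 CPM in the other 7 aortas. The part of fat tissue in the Cdkn2c values was not tested.

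Of the 107 pathway genes, 103 could be tested in aortas and 0 passed in edgeR (10 at an unadjusted p under 0.05, and 1 lower in DESeq2), with a median log2 fold change of -0.05. The S phase and mitosis genes had a median of -0.18, with 7 of 23 above 0, and Cenpf was nearest to the threshold at -0.84 (edgeR adjusted p = 0.217). Trp53inp1, higher in B1b cells labelled cre, stood at 107.9 ± 33.8 CPM in wild-type aortas and 53.5 ± 5.86 CPM with cre and did not pass (log2 fold change -1.002, edgeR adjusted p = 0.122). Cdkn1c, which encodes p57, the third CIP/KIP inhibitor, stood at 30.7 ± 5.99 and 41.9 ± 4.81 CPM (log2 fold change 0.44, edgeR adjusted p = 0.312). The 3 retinoblastoma family genes lay below 0, with a median of -0.38, and Rbl2 was nearest to the threshold at -0.40 (edgeR adjusted p = 0.353).

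Whether the effect of genotype differed between B1b cells and aortas was tested with an interaction term over all 16 libraries. No member passed in edgeR, where 0.0199% of 15091 genes did, and 2 members had an unadjusted p under 0.05, as did 11.1% of all genes. For Ccnd2 the effect was 0.82 log2 units larger in B1b cells (SE 0.22, 95% interval 0.37 to 1.27, unadjusted p = 0.00123, edgeR adjusted p = 0.19). DESeq2 gave 0.87 for the same term and called it (DESeq2 adjusted p = 0.0174). For Ccnd1 the difference was 0.71 (95% interval 0.08 to 1.33, edgeR adjusted p = 0.391). Cdk6 had a log2 fold change below 0 in both tissues, which passed in neither in edgeR and in aortas alone in DESeq2. Its difference between the tissues was 0.27 (edgeR adjusted p = 0.744). The rise of Ccnd2 is therefore not shown by edgeR to be limited to B1b cells.

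The genes whose profile over the 6 B1b libraries lay nearest to that of Ccnd2, among 8458 with a mean of at least 10 CPM, were Gbp2, Pard3b and Adgrl2. Their root mean square differences from Ccnd2 in centred log2 CPM were 0.0883, 0.106 and 0.106. For Ccnd3 the nearest were Uqcrq, Gpsm3 and Prkab1, at 0.0308, 0.0439 and 0.0444, and for Ccnd1 they were Pkd2l2, Wfdc17 and Phtf1os, at 0.235, 0.252 and 0.286. The distances cannot be compared between the cyclins, whose own log2 SD over the 6 libraries was 0.359 for Ccnd2, 0.152 for Ccnd3 and 0.531 for Ccnd1. Over all 16 libraries, where tissue set most of the pattern and 10422 genes were compared, Ccnd2 was nearest to Homez (0.210), Syncrip (0.215) and Topors (0.221). Ccnd1 was there nearest to Sgcb (0.255), Jdp2 (0.297) and Tspan3 (0.299), and Ccnd3 to Tmsb4x (0.120), Stk40 (0.128) and Abhd16a (0.130). None of the neighbours of a D cyclin was another D cyclin on either scale. Ccnd1 lay under the minimum of 10 CPM in B1b cells, so it could not be named as a neighbour there.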

How the data were processed

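RNA sequencing of 16 libraries was read from 1 table of raw counts per RefSeq transcript, whole numbers deposited by the authors without normalization. Per the labels' protocols, Direct-zol columns purified the RNA and the KAPA mRNA Hyperprep kit made the libraries. The submitters' processing notes name CASAVA 1.8.2, STAR 2.5.2b and mm10. How reads were counted, on which annotation release and with or without strand is not given in the sources used here. Of 35745 transcripts, 35440 took a name from the RefSeq gene table, 188 from GENCODE and 117 took none. The row of highest total count was kept per gene.

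Groups follow the genotype label and replicate numbers only the sample order. For each comparison a separate robust quasi-likelihood F test was run in edgeR 4.0.16 (R 4.3.3), after TMM normalization and filterByExpr (a minimum count of 10 and a minimum total of 15). Benjamini-Hochberg adjustment ran over every gene tested, and genes passed at an adjusted p under 0.05. Intervals are 95% intervals. CPM used TMM-scaled library sizes, within a tissue for the genotype comparisons and over all 16 libraries for levels per kilobase. Transcript lengths and sequences came from GENCODE M21 (GRCm38). DESeq2 1.42.0 and limma 3.58.1 served as alternatives, and the fits were tested on simulated counts.

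Every member was named. Of each pathway list, genes past the threshold in a genotype comparison were named, or up to 3 of smallest p, and of marker lists counts and sums were given. For each D cyclin the 3 genes of nearest centred log2 CPM profile (prior count 2) were named, predicted genes and small RNAs passed over. The members and lists were chosen with earlier results of these data known.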

Additional observations from a re-analysis of the deposited data

Results flagged for a closer look

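Cdkn2c in wild-type aortas held 1 library far from the other 4. Replicate 5 read 33.9 CPM, and its gap to the next library took 0.909 of the range of the 5 values. That library had 1979777 counts and the highest summed adipocyte markers of its group, 4701 CPM, and their part in its Cdkn2c value was not tested. The 8 members in the aorta groups gave 16 groups of 5 samples, and chance marks about 1 in 20 such groups.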

How the results depend on the processing

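No paired analysis was possible because the replicate numbers were given in sample order and pair no libraries. Of 496 alternative values for the 8 members, 477 kept their direction and their side of the threshold. In B1b cells 83 genes passed, against 197 with DESeq2, 327 with no filter on low counts, 0 with all 16 libraries in 1 fit (edgeR; 862 at an unadjusted p under 0.05) and 35 to 103 with 1 library left out. With all 16 libraries in 1 fit Ccnd2 stood at 0.67 (edgeR adjusted p = 0.289); the cause was not tested. In aortas 2 genes passed, against 204 with DESeq2, 1 with the row of lowest total per gene, 92 without the aortas under 2000000 counts, 47 with all 16 libraries in 1 fit, 9 with limma-voom quality weights and 0 to 14 with 1 library left out (14 without cre replicate 4). For the difference between tissues 3 genes passed, against 173 with DESeq2, 17 without the small aortas and 1 to 7 with 1 library left out. Between the tissues 10878 genes passed, 10165 to 11425 under the alternatives, and all 8 members kept their direction and their call.

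Cdk6 in aortas ranged from -0.68, without the small aortas, to -0.46, and passed in DESeq2 alone. Of the 16 values that changed sign, none passed and all came from leaving out 1 library. With 1 library left out, B1b cells gave Cdkn1b from -0.0089 (without wild-type replicate 2) to 0.12 and Cdkn2c from -0.044 to 0.53. Aortas gave Ccnd1 from -0.083 to 0.094 and Cdkn1b from -0.12 to 0.0012. For the difference between tissues, Cdk4 ran from -0.046 to 0.10 and Cdkn2c from -0.40 to 0.11. Low counts limit the precision of Ccnd1, Cdkn1a and Cdkn2c in B1b cells and of all members in the 2 aortas under 2000000 counts.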
